A study of Mus musculus with 20 samples.

Results

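The cytosolic ribosomal proteins are the proteins of the ribosome that translates nuclear messenger RNA. Their genes were taken as the protein-coding genes whose GRCm38 symbol begins with Rpl or Rps and a digit, together with Rplp0, Rplp1, Rplp2 and Rpsa, while the Rps6k kinases, Rps19bp1 and the pseudogenes were left out. This gave 85 of the 47729 gene identifiers in the count table. After a filter on low counts 82 of the 85 remained for testing, and Rpl10l, Rpl39l and Rps27rt were not tested.

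The series holds 20 RNA-seq libraries of the hippocampus of male C57BL/6 mice, with 5 libraries per group. The 4 groups were 24-month-old mice in an enriched environment (24mEE) or a standard cage (24mSC), and 5-month-old mice in an enriched environment (5mEE) or a standard cage (5mSC). According to the methods of the study, the enriched cages held running wheels, tunnels and houses, and the 24mEE mice lived in them only for the last months before sampling. The study also states that mice were kept in separate runs, but the labels do not give the run of a library, so it could not be included as a term. The methods do not describe how long the 5mEE mice were enriched.

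A ribosome consists of a small (40S) subunit, which decodes the messenger RNA, and a large (60S) subunit, which joins the amino acids and carries a stalk that recruits the translation factors. The subunits hold a single copy of nearly all their proteins, so the genes are transcribed at high levels and in balance. In vertebrates most of their messenger RNAs begin with a short run of pyrimidines, the 5′ terminal oligopyrimidine tract, through which mTOR signalling controls their translation, and in neurons they are also found in dendrites and axons.

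One library stood apart and is described before all comparisons. It was the only one in which the mitochondrial ribosomal RNAs exceeded 10% of counts. The mitochondrial ribosomal RNAs mt-Rnr1 and mt-Rnr2 together took 26.8% of the counts in 5mSC replicate 3 and 0.883% to 1.82% (median 1.09%) in the other 19 libraries. It was also the shallowest library, with 10963348 counts, against 16115751 to 34107138 in the others. Its mitochondrial transfer RNAs took 1.41% of counts, compared to 0.0153% to 0.0231% elsewhere, and its small nucleolar RNAs summed to 154 CPM (counts scaled to a common library total), compared to 30.7 to 50.5 CPM. The sum of 10 hippocampal neuron markers was 4302 CPM in this library and 6203 to 8699 CPM in the other 19. Astrocyte (1677 against 2376 to 3086 CPM), oligodendrocyte (2965 against 3999 to 7499 CPM) and microglia markers (256 against 401 to 537 CPM) were also below. In contrast, 10 choroid plexus markers, 1 of them at 0 in at least 1 library, summed to 387 CPM against 35.0 to 146 CPM. Dividing cell markers, 3 of them at 0 in at least 1 library, summed to 26.1 CPM against 4.44 to 9.55 CPM. Neocortex, endothelial and blood markers lay within the range of the others. All levels are CPM on the TMM scale (trimmed mean of M values, a correction of the library total), and each comparison was made with all 20 libraries and with the 19 without this library. Because this is bulk tissue, fewer cells of a type and less RNA per cell cannot be told apart.

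The ribosomal protein genes together were far more abundant in the library rich in mitochondrial rRNA. Their levels summed to 12460 CPM, against 3020 to 4480 CPM in the other 19 libraries, which corresponds to 1.04% of its counts compared to 0.304% to 0.461%. When mt-Rnr1 and mt-Rnr2 were removed from the total, the share was 1.42% against 0.306% to 0.468%. The 40S genes summed to 1.29 times the 60S genes in this library, and to 0.745 to 0.814 times in the others, but Rps14 alone gave 3363 of the 6887 CPM of the 40S genes. With a single library of this kind there is no replicate check, and the following values describe this library.

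Single genes in this library spread over a wide range, with log2 ratios to the mean of the other 4 5mSC libraries between -0.78 and 6.82 and a median of 0.64 over the 82 tested genes. Of the 78 ribosomal protein genes over 1 CPM, 53 (67.9%) lay above all 19 other libraries, compared to 28.1% of all 14350 genes over 1 CPM. In the opposite direction 9 (11.5%) lay below all 19, compared to 35.5% of all genes. More than 2-fold above the 5mSC mean were 37.2% of the ribosomal protein genes and 11.4% of all genes.

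The highest ratio was that of Rpl39, which encodes a very small protein that lines the exit tunnel of the large subunit. The gene lies on chromosome X (37082520 to 37085402, minus strand, GRCm38). Its level was 1224 CPM in 5mSC replicate 3, against 12.5, 8.96, 9.99 and 11.9 CPM in the other 5mSC libraries, which is a 113-fold difference. No other library of any group exceeded 12.5 CPM, and 11176 of the 15829 Rpl39 counts in the 20 libraries came from this one. Rps14, a protein of the 40S platform, reached 3363 CPM there, against 159, 125, 123 and 168 CPM. Rps15, a protein of the 40S head, was at 1331 CPM, against 195, 138, 145 and 188 CPM. Both genes were within a narrow range in the other libraries and stood apart in this one. Rpl35a, a large subunit protein, was at 341 CPM, against 30.3, 23.5, 21.8 and 33.0 CPM. Rpl3l and Rpl36 completed the 6 highest, with log2 ratios of 4.27 and 3.16. Rpl41, which encodes the smallest ribosomal protein, came next and was at 598 CPM, against 82.7, 64.7, 68.7 and 105 CPM (log2 ratio 2.90).

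Other ribosomal protein genes were below their usual level in the same library, so the set did not shift as a block. Rpl4, a large subunit protein that reaches into the exit tunnel, was at 333 CPM in 5mSC replicate 3, against 546, 465, 449 and 537 CPM in the other 5mSC libraries. Rpl8, which sits close to the catalytic centre, was at 163 CPM, against 316, 239, 232 and 282 CPM. Rplp0, the base of the P stalk, was at 55.1 CPM, against 93.5, 71.1, 79.2 and 88.5 CPM. All 3 were below every other library of the series. The lowest log2 ratios were those of Rps6 (-0.78), the substrate of the S6 kinases, and of Rpl36al (-0.77), followed by Rpl7a (-0.72). They rested on 15, 69 and 123 counts in this library, so the order among them is uncertain.

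**Figure D1:**
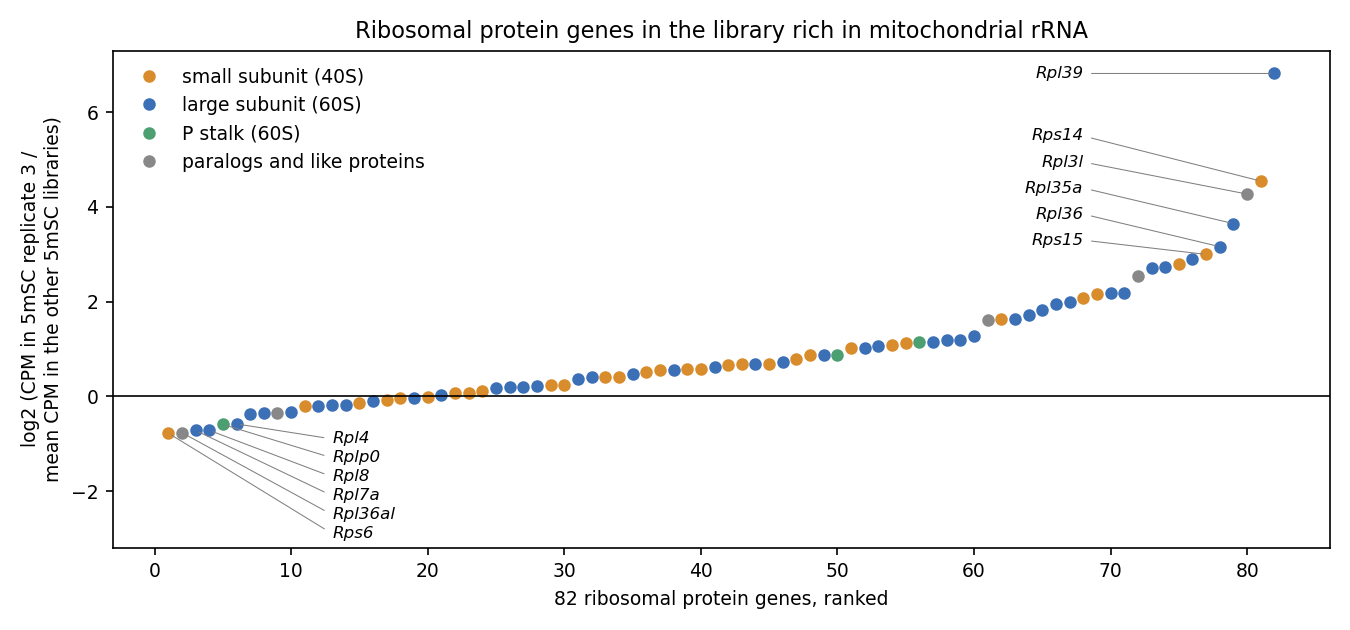
Log2 ratio of the level in 5mSC replicate 3 to the mean level of the other 4 5mSC libraries (y axis) for the 82 tested ribosomal protein genes, ranked (x axis) and coloured by their place in the ribosome. The ratios run from -0.78 (Rps6) to 6.82 (Rpl39), and each point is a single gene of a single library, without an error.

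Of 3 classes of transcript length, the longest had the lowest median ratio. In the shortest transcripts (345 to 614 bases) 23 of 27 genes lay above all 19 other libraries, with a median log2 ratio of 0.88. In the middle length class (from 624 bases) this was 19 of 27 genes, with a median of 1.02, and in the longest (975 to 5179 bases) 14 of 28 genes, with a median of 0.20. By role, the medians were 0.57 for 31 genes of the 40S subunit, 0.68 for 43 genes of the 60S subunit, 0.88 for the 3 genes of the P stalk and 1.62 for 5 paralogs. The annotated pseudogenes of ribosomal protein genes (274 in the table) summed to 181 CPM in this library and to 23.3 to 34.9 CPM in the others. The part of transcript length, the pseudogenes, the cell type markers and the low depth in these values was not tested.

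The start of the transcript was compared because the pyrimidine tract is the sequence that ribosomal protein messenger RNAs are known for. The following windows hold 15 bases before and 15 bases from the RefSeq transcript start (GRCm38.p6), in the direction of the transcript, with the longest run of C and T in capitals. They are shown for 3 genes that were among the highest and 3 that were the lowest in 5mSC replicate 3. The windows are examples and do not compare high with low genes. Rpl35a (log2 ratio 3.65), which is not printed, was counted with the tract described below.
Rpl39: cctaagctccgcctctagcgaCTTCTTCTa
Rps15: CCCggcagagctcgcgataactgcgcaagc
Rpl41: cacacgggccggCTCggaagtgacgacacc
Rps6: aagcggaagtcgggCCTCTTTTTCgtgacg
Rpl7a: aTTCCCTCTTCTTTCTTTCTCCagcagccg
Rpl36al: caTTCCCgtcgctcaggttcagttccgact
The windows lie on the minus strand at chrX:37085208-37085237 (Rpl39), chr10:128549154-128549183 (Rpl41), chr4:86857353-86857382 (Rps6) and chr12:69184053-69184082 (Rpl36al), and on the plus strand at chr10:80292416-80292445 (Rps15) and chr2:26910792-26910821 (Rpl7a).

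A tract was counted where the annotated start base is C and the next 4 bases are each C or T, read on the transcript strand alone. It was present in 14 of 65 ribosomal protein genes with a RefSeq start (21.5%) and in 813 of 27025 genes (3.0%). By this rule only Rps6 holds it among the genes printed above. The rule reads only the annotated start, so a gene counted without the tract may hold it at another start. The Rps15 window, for example, ends at 80292445, before the gene begins at 80292453 in the gene annotation. The 13 tested genes counted with the tract had a median log2 ratio of 0.88 in 5mSC replicate 3. The 49 tested genes counted without it had a median of 0.59. These medians therefore compare annotated starts and do not test the tract. In Rpl7a a long run of pyrimidines spans the annotated start and was not counted, since the annotated start base was not C.

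Levels in the other 19 libraries were related to length, since longer transcripts give more reads. Per kilobase of exon, the most abundant were Rplp1 (334 CPM per kilobase), an acidic protein of the P stalk, Rps15 (236), Rpl4 (235), Rpl8 (177) and Rps21 (135), a 40S protein that binds Rpsa. At the other end were Rpsa (0.533), the 40S protein also known as the laminin receptor, Rpl3l (0.208), Rpl39l (0.178), Rps27rt (0.0133) and Rpl10l (0). The reads were 50 nucleotides long, and many ribosomal protein genes have processed copies with nearly the same sequence. Of the 50-base words of the main transcript, over 70% also occurred in another gene in 30 members, which had a median level of 2.92 CPM per kilobase. The median was 12.6 CPM per kilobase in 43 genes sharing over 20% and at most 70% of their words, and 10.1 CPM per kilobase in 12 genes sharing at most 20%. Levels of genes such as Rpl10 (92.1% of words shared) and Rps6 (84.6%) are therefore uncertain, because the handling of reads that match several places is not given in the sources used here.

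Several ribosomal protein genes have a paralog that is used in particular tissues. Rpl22 averaged 33.4 CPM per kilobase in the 19 libraries and its paralog Rpl22l1 13.6 CPM per kilobase. In 5mSC replicate 3 they were at 194 and 180 CPM, against ranges of 85.8 to 122 CPM and 20.7 to 36.5 CPM in the other libraries, so both were above their range. Rpl36al averaged 8.38 and Rpl36a 4.29 CPM per kilobase. Rps27l, a paralog of Rps27, averaged 6.96 and Rps27 2.15 CPM per kilobase. Rpl7l1 averaged 7.39 and Rpl7 20.4 CPM per kilobase. Of the words of the main transcript, 98.6% were shared with another gene in Rps27 and 22.4% in Rps27l. The share was 85.5% in Rpl36a and 63.3% in Rpl36al, and 24.5% in Rpl22 and 65.6% in Rpl22l1. In these pairs the gene sharing more had the lower level, while Rpl7 (53.3%) was above Rpl7l1 (9.19%). The handling of reads that match several places is not given, so the order within the Rps27, Rpl36a and Rpl22 pairs is uncertain. Among the paralogs known from muscle and testis in mice, Rpl3l ranged from 0.144 to 0.651 CPM in the 19 libraries and was at 6.03 CPM (55 counts) in 5mSC replicate 3, while Rpl3 was at 24.98 CPM there and at 23.2 to 31.7 CPM in the 19. Rpl39l was at 1.10 CPM (10 counts) in that library and at 0 to 0.379 CPM in the others. Rpl10l had no count in the 19 libraries, in each of which 3 counts correspond to 0.0882 to 0.183 CPM, and a single count in 5mSC replicate 3.

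**Figure D2:**
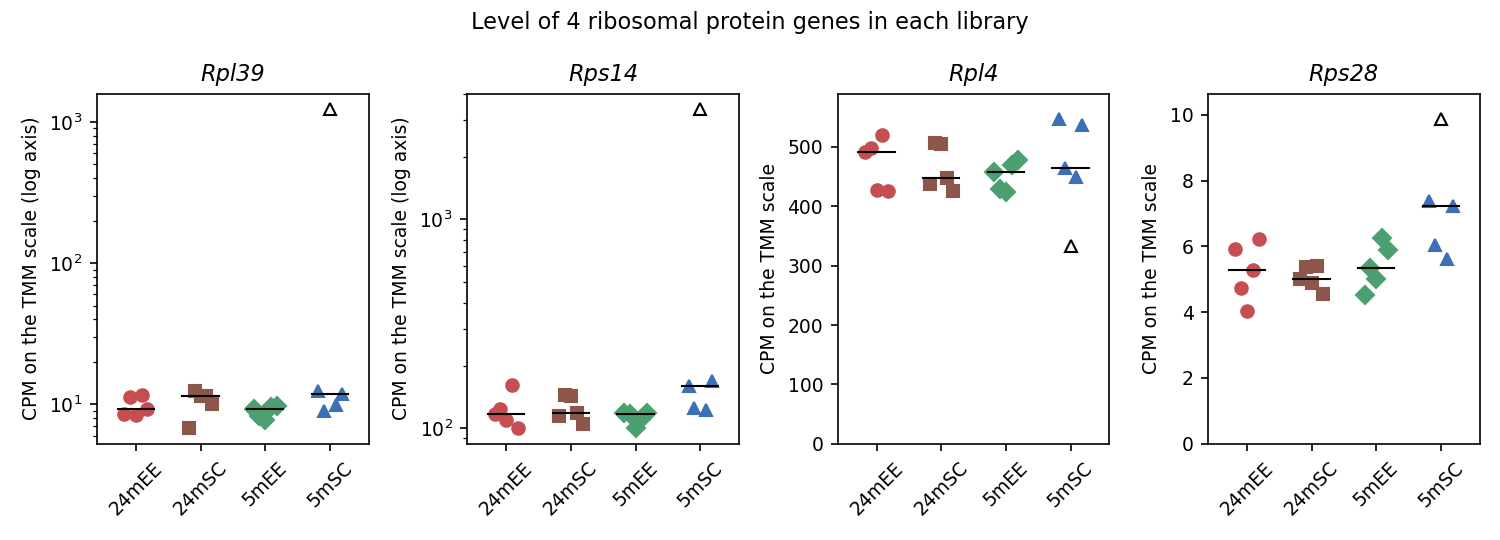
Level of Rpl39, Rps14, Rpl4 and Rps28 (y axis, CPM on the TMM scale, log axis for Rpl39 and Rps14) in each library of the 4 groups (x axis, 5 libraries each). Lines are group medians and the open triangle is 5mSC replicate 3, which lies at 1224 CPM for Rpl39 and 3363 CPM for Rps14 and below all others for Rpl4 (333 CPM).

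The first comparison addressed aging under standard housing, 24mSC vs. 5mSC. No ribosomal protein gene passed edgeR's quasi-likelihood test at an adjusted p under 0.05, either with all 20 libraries, where 0.803% of all 16692 genes passed, or with 19, where 3.58% of 16755 genes passed. With 19 libraries the log2 fold change was negative for 79 of 82 genes, with a median of -0.17, whereas the median over all genes was -0.00 and 50.4% were negative. At an unadjusted p under 0.05 there were 14 genes, all lower in 24mSC, which is 14 of 82 beside 22.3% of all genes. With 20 libraries the median was -0.34, with 79 negative, and 40 genes, all lower, had an unadjusted p under 0.05, beside 20.5% of all genes. The DESeq2 Wald test called 3 genes lower with 20 libraries, among them Rps27l and Rps28, and 1 with 19, and limma-voom called none. The count with 20 libraries rested on single 5mSC libraries: it was 18 without 5mSC replicate 2, 7 without replicate 4, and 1 without replicate 1 or without replicate 5. With 19 libraries it was 5 without 5mSC replicate 2 (among them Rpl36al, Rpl41, Rplp2 and Rps2) and 0 when any other library was left out.

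Rps28, at the exit of the messenger RNA channel, had 4.996, 5.37, 4.88, 5.40 and 4.56 CPM in 24mSC and 7.38, 6.03, 5.63 and 7.23 CPM in 5mSC, with 9.86 CPM in 5mSC replicate 3, without overlap (log2 fold change -0.39, SE 0.13, adjusted p = 0.0869, edgeR, 19 libraries). Rps2, at the channel's entry, and Rpl7l1 followed with log2 fold changes of -0.27 (SE 0.10) and -0.18 (SE 0.069), both at an adjusted p of 0.122. With 20 libraries small p values belonged to Rpl39 (log2 fold change -4.58, SE 1.12, adjusted p = 0.0521) and Rps14 (-2.65, SE 0.71, adjusted p = 0.0665), which were the genes most raised in 5mSC replicate 3. Without that library Rpl39 was at 6.83, 12.4, 11.5, 11.5 and 10.1 CPM in 24mSC and at 12.5, 8.96, 9.99 and 11.9 CPM in 5mSC, which overlap. Microglia markers summed to 468 to 537 CPM in 24mSC and to 463 CPM at most in 5mSC, and dividing cell markers to 4.44 to 6.23 CPM in 24mSC and to at least 6.996 CPM in 5mSC. Their part in the result was not tested.

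Enrichment at 24 months, 24mEE vs. 24mSC, gave the smallest differences. No ribosomal protein gene passed with 20 libraries, where 0% of all genes passed, or with 19, where 0.0358% passed, and neither DESeq2 nor limma-voom called any. With 19 libraries 50 genes were negative and 32 positive, with a median log2 fold change of -0.02. An unadjusted p under 0.05 was found for 2 genes, of which Rpl36 was lower, beside 10.7% of all genes, and with 20 libraries for 1 gene, beside 6.21%. The median changed its sign when single libraries were left out, with a range of -0.08 to 0.04 over 10 such fits of the 19 libraries, and was positive without 24mEE replicate 5, 24mSC replicate 2 or 24mSC replicate 3. Rpl36 was at 3.36, 3.44, 2.49, 3.59 and 2.52 CPM in 24mEE and at 4.13, 4.24, 4.44, 2.54 and 3.93 CPM in 24mSC, where replicate 4 lay within the 24mEE range (log2 fold change -0.32, SE 0.15, adjusted p = 0.459). Rps10 (log2 fold change -0.18, SE 0.11) and Rps29 (-0.31, SE 0.21), both proteins of the 40S head, were next, at adjusted p of 0.618 and 0.676. With 20 libraries Rpl37 (-0.14, SE 0.11) and Rps20 (-0.10, SE 0.11) were among the 4 genes with the smallest p, both at an adjusted p of 0.9995. Hippocampal neuron markers summed to 7075 to 8546 CPM in 24mEE and to 6838 to 7358 CPM in 24mSC, and neocortex markers to 166 to 262 CPM in 24mEE and to 224 to 291 CPM in 24mSC. Their part in the result was not tested.

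Enrichment at 5 months, 5mEE vs. 5mSC, gave a nearly uniform direction. With 19 libraries 80 of 82 genes were lower in 5mEE, with a median log2 fold change of -0.28, beside 51.6% negative and a median of -0.01 over all genes. At an unadjusted p under 0.05 there were 48 genes, all lower, beside 12.8% of all genes. No gene passed after adjustment, where 0.00597% of all genes passed, and the smallest adjusted p was 0.304. With 20 libraries 80 were negative with a median of -0.42, 55 had an unadjusted p under 0.05 beside 16.5% of all genes, and no gene passed where 0% of all genes passed. DESeq2 and limma-voom called none in either case. By role, with 19 libraries, the log2 fold change was negative for 31 of 31 genes of the 40S subunit (median -0.29), 42 of 43 of the 60S subunit (median -0.27), all 3 of the P stalk (median -0.33) and 4 of 5 paralogs (median -0.22). Both this comparison and 24mSC vs. 5mSC use the same 5mSC libraries.

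Rps21 showed the smallest p in this comparison. It was at 100.1, 98.1, 93.9, 99.0 and 97.7 CPM in 5mEE and at 154, 107, 112 and 144 CPM in 5mSC, without overlap (log2 fold change -0.41, SE 0.12, adjusted p = 0.304, 19 libraries). Rps26, at the exit of the messenger RNA channel, was at 32.6, 30.9, 31.8, 33.2 and 34.02 CPM in 5mEE and at 45.1, 36.0, 35.1 and 43.1 CPM in 5mSC (log2 fold change -0.30, SE 0.087, adjusted p = 0.304). In both genes replicates 1 and 5 of 5mSC were the high ones, and replicates 2 and 4 lay just above the 5mEE range. Rpl41 was at 62.5, 62.6, 59.5, 63.5 and 56.1 CPM in 5mEE, against 82.7, 64.7, 68.7 and 105 CPM in 5mSC (log2 fold change -0.41, SE 0.12, adjusted p = 0.304). Rps15 was at 138, 133, 127, 135 and 129 CPM in 5mEE, against 195, 138, 145 and 188 CPM in 5mSC, where replicate 2 was close to the highest 5mEE value (log2 fold change -0.34, SE 0.11, adjusted p = 0.311). Without 5mSC replicates 1 and 3 the median of the 82 genes was -0.20. The choroid plexus markers summed to 47.2 to 146 CPM (median 93.9) in 5mEE and to 35.0 to 387 CPM (median 53.0) in 5mSC with replicate 3, which held the 387 CPM. With 19 libraries 8 of 9 tested choroid plexus markers were higher in 5mEE, with a median log2 fold change of 0.78. Of these 4 had an unadjusted p under 0.05 (edgeR), beside 12.8% of all genes, and none passed after adjustment. The part of these markers in the result was not tested.

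The old and the young enriched mice, 24mEE vs. 5mEE, differed little. With 19 libraries 64 of 82 genes were positive, with a median log2 fold change of 0.07. No gene passed, where 0.269% of all genes passed, and only Rpl19, a large subunit protein that forms a bridge to the small subunit, had an unadjusted p under 0.05, beside 8.98% of all genes. With 20 libraries the median was again 0.07, and there too Rpl19 alone had an unadjusted p under 0.05, beside 4.61%, while 0.108% of all genes passed after adjustment. Neither DESeq2 nor limma-voom called any. Rpl19 was at 0.886, 1.29, 1.09, 1.46 and 1.05 CPM in 24mEE and at 0.676, 0.585, 1.10, 0.980 and 0.632 CPM in 5mEE, which overlap (log2 fold change 0.55, SE 0.20, adjusted p = 0.347). Rpl31 and Rps27 followed with log2 fold changes of 0.23 (SE 0.11) and 0.34 (SE 0.17). The median of the 82 genes was -0.00 without 24mEE replicate 4 (19 libraries), so its sign rested on that library. Dividing cell markers summed to 4.601 to 6.34 CPM in 24mEE and to 7.38 to 9.55 CPM in 5mEE, and their part in the result was not tested.

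The interaction of age and environment tests whether the difference between enriched and standard housing was not the same at 24 and at 5 months. It was positive for 79 of 82 genes with 19 libraries, with a median of 0.23, beside 51.8% positive and a median of 0.01 over all genes. This contrast includes the same 5mSC libraries as 5mEE vs. 5mSC. The genes moved together from library to library, so these are not 79 separate observations. The median was 0.15 without 5mSC replicate 1 and 0.30 without 5mSC replicate 2. With 19 libraries 11 genes had an unadjusted p under 0.05, all positive, beside 9.13% of all genes, and with 20 libraries 27, beside 8.0%. No gene passed with either set of libraries, where 0% of all genes passed, and DESeq2 and limma-voom called none. Among the genes with the smallest p with 19 libraries were Rpl10, which is added late in the assembly of the large subunit (0.58, SE 0.21, adjusted p = 0.449), Rps26 (0.31, SE 0.12, adjusted p = 0.474) and Rpl41 (0.43, SE 0.17, adjusted p = 0.479). With 20 libraries the values of this contrast ran from -0.07 to 4.72, the highest being that of Rpl39.

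**Figure D3:**
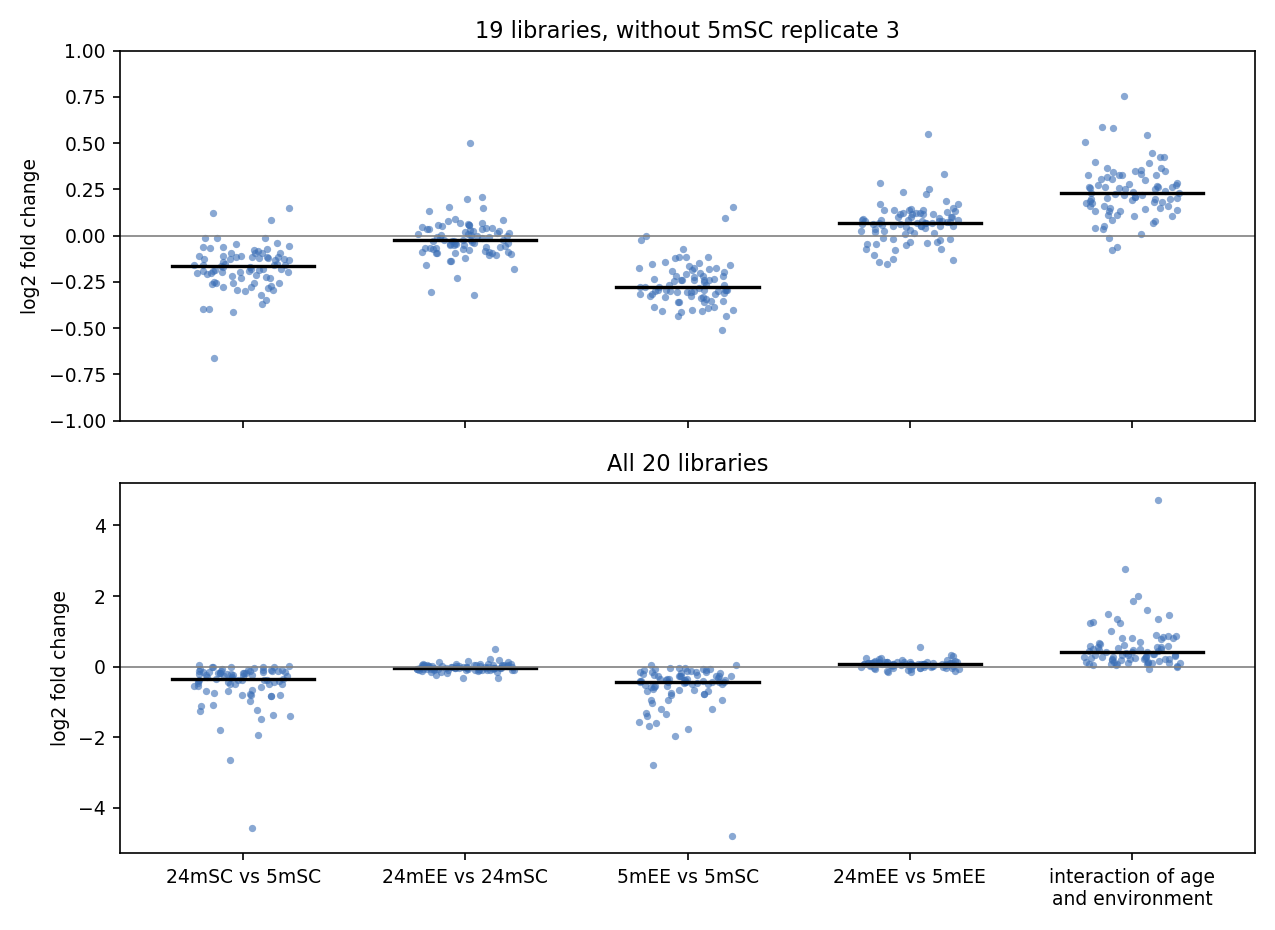
Log2 fold change (y axis) of the 82 tested ribosomal protein genes in the 5 comparisons (x axis), without 5mSC replicate 3 (upper) and with all 20 libraries (lower, wider axis). Points are genes and lines are medians, which are -0.17, -0.02, -0.28, 0.07 and 0.23 in the upper plot, and no point passed the test.

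The ribosomal protein genes moved together from library to library within the groups. The median log2 deviation of the 82 genes from their mean over the 19 libraries was highest in 5mSC replicate 1 (0.34), where all 82 genes were above their mean, in 5mSC replicate 5 (0.29), with 78 above, and in 24mEE replicate 4 (0.22), with 78 above. It was lowest in 24mEE replicate 5 (-0.22), 5mEE replicate 3 (-0.18) and 24mEE replicate 3 (-0.14), with 11, 6 and 9 genes above their mean. The 24mEE group thus held libraries from both ends. In contrast, the 5mEE libraries lay close together, with medians from -0.18 to -0.04. The spread between replicates of a group was 0.15 (pooled SD, 19 libraries), which is larger than the median differences between 24mEE and 24mSC and between 24mEE and 5mEE. The medians of 24mSC vs. 5mSC (-0.17), 5mEE vs. 5mSC (-0.28) and the interaction (0.23) were larger than this spread. It describes single libraries and is not the error of a difference between groups.

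The share of mitochondrial rRNA varied in parallel, also without the library that stood apart. Of the 5 libraries with the highest median of the ribosomal protein genes, 4 were among the 5 with the highest share of mt-Rnr1 and mt-Rnr2, and the 5 lowest libraries were the same in both. This was examined gene by gene after the pattern had been seen, with a slope on the log2 of this share within the groups, fitted with edgeR over the 19 libraries and all genes. With each doubling of the share 31 of 82 ribosomal protein genes rose past an adjusted p of 0.05 and none fell, whereas 0.931% of all genes rose and 60 of 16755 fell. The slope was positive for 81 of the 82 genes, with a median of 0.45 on the log2 scale, beside 50.3% positive and a median of 0.00 over all genes. Both quantities are shares of the same library totals. In the same fit the slope was negative for 9 of 9 choroid plexus markers (median -0.59). It was also negative for 8 of 8 endothelial (median -0.67) and 5 of 5 blood markers (median -0.52). Positive slopes were found for 7 of 8 microglia (median 0.10) and 7 of 8 astrocyte markers (median 0.12). Hippocampal neuron, neocortex, oligodendrocyte and dividing cell markers had slopes of both signs. Of all these markers 1, a choroid plexus marker, passed the test, and the part of these cells in the result was not tested. The number of genes that rose was 9 without 24mEE replicate 4, 9 without 24mEE replicate 5, 14 without 5mSC replicate 4, 17 without 24mSC replicate 2 and 20 without 5mSC replicate 2, while the median slope in these 5 fits was between 0.39 and 0.46.

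**Figure D4:**
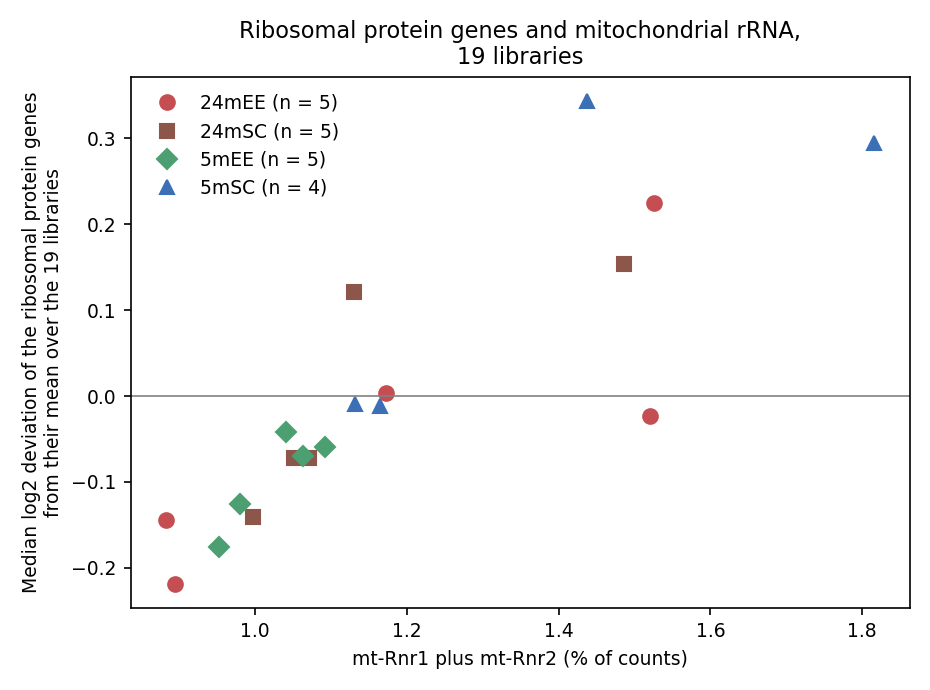
Median log2 deviation of the 82 tested ribosomal protein genes from their mean over 19 libraries (y axis) against the percentage of counts on mt-Rnr1 and mt-Rnr2 (x axis), each point being a library and each symbol a group. The 2 highest points are 5mSC replicates 1 (0.34) and 5 (0.29), and the lowest is 24mEE replicate 5 (-0.22).

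The genes with the smallest p of the slope, picked after their values were seen, came from both subunits. Rpl34, of the large subunit, rose by 0.64 per doubling (SE 0.086, adjusted p = 0.00203, edgeR) and Rps19, the 40S protein most often mutated in human Diamond-Blackfan anaemia, by 0.63 (SE 0.086, adjusted p = 0.00203). Rps24 and Rpl37 rose by 0.60 (SE 0.090, adjusted p = 0.00577) and 0.55 (SE 0.087, adjusted p = 0.00877). Rpl34 was at 34.8, 33.6, 30.0, 42.0 and 27.3 CPM in 24mEE, at 33.1, 39.9, 34.1, 31.8 and 29.1 CPM in 24mSC, at 33.1, 29.9, 29.0, 32.5 and 33.9 CPM in 5mEE and at 42.4, 33.6, 33.1 and 46.5 CPM in 5mSC. The high values belonged to 24mEE replicate 4, 24mSC replicate 2 and 5mSC replicates 1 and 5, which were also among the 5 libraries with the highest share of mitochondrial rRNA. By role, 14 of 31 genes of the 40S subunit, 14 of 43 of the 60S subunit, 2 of 3 of the P stalk (Rplp1 and Rplp2) and 1 of 5 paralogs (Rpl22l1) rose. Rpl39 had a slope of 0.44 (SE 0.19) that did not pass, and Rpl9 alone had a negative slope (-0.06). The 13 tested genes counted with the pyrimidine tract at the annotated start had a median slope of 0.47 and the 49 counted without it 0.43.

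When the share of mitochondrial rRNA was entered as a covariate, which was also decided after the pattern had been seen, the medians came closer to 0, except that of 24mEE vs. 24mSC. The median log2 fold change was -0.05 for 24mSC vs. 5mSC (24 of 82 genes positive), -0.04 for 24mEE vs. 24mSC (26 positive), -0.08 for 5mEE vs. 5mSC (15 positive), -0.02 for 24mEE vs. 5mEE (30 positive) and 0.02 for the interaction (48 positive). No gene passed in any of the 5 comparisons with edgeR. The share was 0.953% to 1.09% in 5mEE and 1.13% to 1.82% in the 4 5mSC libraries, so that the groups did not overlap, and housing at 5 months and this share cannot be told apart.

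Genes that build or serve the ribosome were examined beside its proteins. Of the 3 components outside the symbol rule, Rack1, a scaffold on the 40S head, rose with the share of mitochondrial rRNA by 0.38 per doubling (SE 0.072, adjusted p = 0.0184), while Fau, which encodes a ribosomal protein fused to a ubiquitin-like domain, had a slope of 0.37 (SE 0.16) that did not pass. None of the 3 passed in a comparison of groups. Of 77 tested mitochondrial ribosomal proteins, 75 had a positive slope on that share, with a median of 0.21. Past the test 2 rose (Mrpl30, by 0.40, and Mrpl20, by 0.47), which is 2.6% beside 0.931% of all genes. In 24mSC vs. 5mSC none of the 77 passed and 74 were lower (median -0.15, 25 with an unadjusted p under 0.05, all lower, beside 22.3% of all genes, 19 libraries). In 5mEE vs. 5mSC none passed and 71 were lower (median -0.14, 23 with an unadjusted p under 0.05, all lower, beside 12.8% of all genes, 19 libraries). The nearly uniform sign was thus not particular to the cytosolic ribosomal proteins.

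The wider translation machinery was less uniform. Of 39 initiation factors 3 rose with the share of mitochondrial rRNA, beside 0.931% of all genes, all of them subunits of eIF3 (Eif3m by 0.46, Eif3e by 0.41 and Eif3h by 0.34 per doubling), and 1 fell, the scaffold Eif4g3 (-0.32). Of 13 elongation and termination factors 3 rose, namely Naca (0.41), which shields nascent chains, Eef1b2 (0.36), which reloads elongation factor 1A, and Tpt1 (0.46). None of 43 ribosome biogenesis factors rose and Rrp12, which exports the subunits, fell (-0.40). Of 19 genes of mTOR and S6 kinase signalling only Mtor itself fell (-0.44). All 8 host genes of small nucleolar RNAs had a positive slope (median 0.41), and of these Snhg8 rose past the test (0.73). Of 16 tested pseudogenes of ribosomal protein genes 13 had a positive slope (median 0.39), and none passed.

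In the comparisons of groups with 19 libraries 2 genes of these lists passed, both higher in 24mSC than in 5mSC, where 3.58% of all 16755 genes passed. They came from the 13 elongation and termination factors and the 19 mTOR and S6 kinase genes. None of 39 initiation factors, 43 biogenesis factors, 8 host genes, 77 mitochondrial ribosomal proteins and 16 pseudogenes passed. The 2 genes were Eef2k, the kinase that slows elongation (log2 fold change 0.29, SE 0.069, adjusted p = 0.0274, edgeR), and Rps6ka5, a nuclear kinase named for its likeness to the S6 kinases (0.32, SE 0.085, adjusted p = 0.0397). Neither passed with 20 libraries, where their log2 fold changes were 0.18 (adjusted p = 0.285) and 0.25 (adjusted p = 0.149). The smallest p of the initiation, biogenesis and host gene lists in 24mSC vs. 5mSC belonged to Eif1, which guards start codon choice (-0.27, adjusted p = 0.0614), Emg1, which methylates the 18S rRNA (-0.31, adjusted p = 0.0614), and Snhg6 (-0.41, adjusted p = 0.0950). In the other 4 comparisons with 19 libraries no gene of the initiation, elongation, biogenesis, mTOR, host gene, mitochondrial ribosomal and pseudogene lists passed. At most 0.269% of all genes passed there.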

How the data were processed

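The authors prepared poly(A) libraries with the TruSeq RNA v2 kit, which keeps no strand information, and sequenced single-end reads of 50 nucleotides. Per the labels, the deposited counts are whole reads per Ensembl gene, counted with featureCounts 1.4.6-p4 after alignment to GRCm38 with STAR 2.4.1d (reads extracted by bcl2fastq 1.8.2). The deposited RPKM values were not used. Symbols came from GENCODE for GRCm38 (47310 of 47729 identifiers, 99.1%). Counts were tested with edgeR 4.0.16 (R 4.3.3; quasi-likelihood test, filterByExpr with a least count of 10 and total of 15, TMM, 4 groups in 1 model, Benjamini-Hochberg adjustment over all genes, threshold 0.05), with 20 libraries and with 19. SE is the fold change divided by the root of F. No term for the sequencing run could be built. DESeq2 1.42.0, limma 3.58.1 and other scalings, filters and library sets were alternatives. The slope on the mitochondrial rRNA share and its use as a covariate were added after seeing the data. Libraries of a group differed beyond sampling noise (chi-square per degree of freedom 4.78 to 632 in 40 pairs). Per the study's methods RNA was isolated from each sample individually. Floors cover counting error only. The genes and lists were chosen with earlier results of these data known. Named were, per comparison and library set, the 4 genes with the smallest p, the 6 highest and 6 lowest in 5mSC replicate 3, the 5 highest and 5 lowest per kilobase, paralogs, stalk proteins, Rpsa, Rps6, Rps27a, Fau, Rack1, and up to 3 genes of each other list. Some genes that this rule names are not reported here. The scripts were tested on simulated data.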

Additional observations from a re-analysis of the deposited data

Results flagged for a closer look

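Within each group of 5 libraries, the gap between the most extreme library and its nearest neighbour was divided by the range of the group. Of 180 groups of values examined, 26 exceeded Dixon's critical value, which flags about 1 in 20 groups of unselected values by chance. Of the 26, 19 came from 5mSC replicate 3, among them the mitochondrial rRNA share by which it was set apart. The groups were those of genes named by the rule given above and of library measures. Some genes were named because they were the highest or lowest in 5mSC replicate 3. For these a flag was largely fixed in advance, so 1 in 20 is no reference for the 19, which are a description.

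In 5mSC replicate 3 the large subunit genes far above the other libraries were Rpl39 (gap ratio 0.997), Rpl35a (0.965), Rpl36 (0.951), Rpl41 (0.925), Rpl10 (0.830) and Rpl31 (0.745, with 6.57 CPM against 4.39 to 4.95 CPM). The small subunit genes were Rps14 (gap ratio 0.986), Rps15 (0.953), Rps27 (0.9275) and Rps10 (0.868, with 84.9 CPM against 14.8 to 24.0 CPM). Among paralogs these were Rpl10l (gap ratio 1.0, a single count), Rpl3l (0.934), Rpl22l1 (0.921), Rpl39l (0.865) and Rps27l (0.800). Fau, the fusion gene, had a gap ratio of 0.896. The sum of the ribosomal protein genes (0.889) and the ratio of 40S to 60S sums (0.925) stood apart as well. The gap ratio of the mitochondrial rRNA share was 0.973, but this library was set apart by that share, so the value is a description.

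The flags in the other libraries were about as frequent as the 1 in 20 groups that chance flags, and are listed as a description. Rpl3 was low in 5mEE replicate 2 (23.2 CPM against 25.5 to 25.8 CPM, gap ratio 0.882), and Rpl36 was low in 24mSC replicate 4 (2.54 CPM against 3.93 to 4.44 CPM, 0.734). Rps27a, which encodes ubiquitin fused to a 40S protein, was high in 5mEE replicate 4 (3.96 CPM against 2.23 to 2.56 CPM, 0.811). Rps6 was high in 24mEE replicate 4 (3.10 CPM against 2.01 to 2.14 CPM, 0.882). Rps27rt was at 0.0517 CPM in 24mSC replicate 2 and at 0.0426 CPM in 5mEE replicate 4, and at 0 in the other libraries of these groups (gap ratio 1.0 for both), and with 2 counts over all 20 libraries each of these values is a single read, below the floor of 3 counts. The mitochondrial rRNA share was high in 24mSC replicate 2 (1.49% against 0.998% to 1.13%, 0.729).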

How the results depend on the processing

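In 24mSC vs. 5mSC, where edgeR called 0 ribosomal protein genes, DESeq2 called 3 with 20 libraries and 1 with 19, and TMM factors computed without these genes gave 1 with 19 libraries. Leaving out single libraries gave 0 to 18 genes with 20 libraries and 0 to 5 with 19. The genes rising with the mitochondrial rRNA share numbered 11 without the 5mSC libraries, against 31 with them, and 9 to 41 when single libraries were left out. The cause was not tested. The count of genes past the test was also 0 in 94 of 99 alternatives with 20 libraries and in 93 of 96 with 19, but in several comparisons 0% of all genes passed, so this count was at its floor. For the slope the count was within 1.5 times in 18 of 24 alternatives. The median log2 fold changes moved by less than the spread between replicates in 93 of 99 alternatives with 20 libraries and in 94 of 96 with 19. That spread was 0.20 with 20 libraries and 0.15 with 19, which exceeds the medians of 24mEE vs. 24mSC and 24mEE vs. 5mEE. A change of sign there thus counts as unmoved, and these counts do not show that the medians are stable. With the mitochondrial rRNA share as a covariate the medians of 5mEE vs. 5mSC and of the interaction shrank, as described above. On library totals without TMM the log2 ratios of 5mSC replicate 3 ran from -1.06 (Rps6) to 6.54 (Rpl39). No paired analysis was possible because the replicate numbers are only in accession order. Depth limits the lowest genes: 3 counts correspond to 0.0882 to 0.329 CPM.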
